A study of Mus musculus with 48 samples.

Results

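The 9 genes described here mark blood vessel endothelium: Kdr, Flt1, Tek, Tie1, Cdh5, Pecam1, Emcn, Egfl7 and Etv2. They were chosen by name, as textbook endothelial genes, with earlier results of these data known. All 9 were among the 22173 genes of the count table of developmental stages, 8 (all but Etv2) were among the 13682 genes listed in the FPKM table (fragments scaled to exon length and library size), and all 9 were found by Ensembl identifier among the 32285 genes of the 10x single-cell table. Of the 48 samples in the series, 40 hold the values given here and 8 libraries of primordial germ cells were not used.

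The study asked which signals mark the gonadal somatic cells (GSCs) of the E12.5 mouse ovary and whether female embryonic stem cells (ESCs) treated with small molecules come to resemble them. The stage series held GSCs of C57BL/6 female gonads from 3 embryonic days (E12.5, E13.5, E16.5) and of the ovary 6 weeks after birth (P6w), with 2 libraries each. By the study's methods the E12.5 cells were the fraction that did not bind an anti-SSEA1 column, a step that takes out germ cells and is not aimed at vessel or blood cells. A second set held 3 libraries of E12.5 female gonadal cells (E12.5_GC) and 3 libraries each of ESC-derived GSC-like cells at days 4, 6, 8 and 10 under V580, the combination of vitamin C (Vc) and AM580, an agonist of retinoic acid receptor alpha. The start of induction was followed at 24 h and 48 h in cells given no compound (Con), Vc, AM580 or V580, with 2 libraries each, and a 10x library of V580 day 6 cells gave 15315 cells. Nothing in the labels says that libraries of a group came from separate animals or cultures, so p-values measure only the spread between these libraries, which may be technical.

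The stage libraries held 12694769 to 22259044 counts, the FPKM libraries an estimated 16400000 to 28300000 fragments, and the 10x cells a median of 9281 unique molecular identifiers (UMIs; 885 to 179817). E12.5, E13.5 and E16.5 replicate 1 were read on lane 5, and E16.5 replicate 2 and P6w on lane 1. The E12.5 stage libraries had 97 and 103 counts of the Y-linked gene Ddx3y, against 0 to 4 in the other 6, which goes against their female label. The E13.5 libraries had 935 and 738 counts of the liver gene Alb, against at most 27 elsewhere. The part of either in the results was not tested.

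Endothelial cells line blood vessels and read the vascular endothelial growth factor (VEGF) signal through the receptors encoded by Kdr (VEGFR2) and Flt1 (VEGFR1, which binds VEGF tightly and limits its signal). Tek encodes TIE2, the receptor for angiopoietins, and Tie1 its partner; Cdh5 encodes VE-cadherin and Pecam1 encodes CD31, adhesion proteins of the junctions between endothelial cells. Emcn encodes a surface sialomucin of veins and capillaries, Egfl7 a secreted vessel factor and host of miR-126, and Etv2 an ETS transcription factor that starts the blood and endothelial programme in the early embryo and is then switched off. Several of these genes are not exclusive to vessels: Kdr is also made by mesodermal progenitors, Pecam1 by undifferentiated ESCs and Flt1 by trophoblast.

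ETS factors, the family of Etv2, bind DNA with a GGAA core, so the 250 bases upstream of the start were searched for GGAA on both strands. RefSeq promoters (GRCm38.p6) were at hand for 7 of the 9 genes. Those of 3 receptors and of Etv2 itself are shown 5′ to 3′ along the gene's strand, with each GGAA or its reverse complement TTCC in capitals. In the V580 cells described further on, Kdr and Flt1 rose and Tek stayed low. Etv2 is the ETS factor among the 9. The window of Tie1, the receptor that fell in those cells, is not shown.
Kdr, chr5:75978456-75978705, minus strand: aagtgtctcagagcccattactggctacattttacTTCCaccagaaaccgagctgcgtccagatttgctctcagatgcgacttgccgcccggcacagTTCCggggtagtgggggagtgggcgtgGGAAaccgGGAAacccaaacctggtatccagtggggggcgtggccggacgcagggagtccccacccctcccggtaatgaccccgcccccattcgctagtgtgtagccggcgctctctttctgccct
Flt1, chr5:147726012-147726261, minus strand: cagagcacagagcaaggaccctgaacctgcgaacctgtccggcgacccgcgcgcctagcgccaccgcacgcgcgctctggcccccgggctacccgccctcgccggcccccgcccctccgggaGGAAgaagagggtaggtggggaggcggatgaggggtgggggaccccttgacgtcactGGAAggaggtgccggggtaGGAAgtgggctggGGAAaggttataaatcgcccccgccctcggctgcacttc
Tek, chr4:94739039-94739288, plus strand: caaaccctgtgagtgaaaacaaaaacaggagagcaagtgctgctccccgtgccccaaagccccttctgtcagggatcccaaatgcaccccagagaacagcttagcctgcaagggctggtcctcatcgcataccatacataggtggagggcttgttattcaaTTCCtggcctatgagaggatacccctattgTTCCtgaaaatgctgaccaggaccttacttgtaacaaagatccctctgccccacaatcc
Etv2, chr7:30635853-30636102, minus strand: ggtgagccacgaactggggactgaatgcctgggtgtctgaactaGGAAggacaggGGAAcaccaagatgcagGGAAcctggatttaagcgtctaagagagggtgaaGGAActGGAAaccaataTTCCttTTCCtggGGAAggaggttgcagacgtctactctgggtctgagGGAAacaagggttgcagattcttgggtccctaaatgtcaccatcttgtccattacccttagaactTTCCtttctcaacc

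The Etv2 window held 10 GGAA cores, Kdr and Flt1 held 4 each, and Tek held 2. Among the windows not shown, Tie1 held 7, Emcn 4 and the 3 Egfl7 windows 5, 3 and 1. GGAA occurs in 93.4% of 32851 promoter windows of the same length, with a mean of 2.91, so its presence does not set these genes apart. GC content was 70.4% for Flt1, 61.6% for Kdr, 51.2% for Tek and 50% for Etv2. The longer ETS motif CAGGAAG, which contains the core, was found in 2 of 3 Egfl7 windows and in the Emcn window (10.8% of all promoters hold it), while CCGGAAG (6.91%), the GATA motif AGATAA (9.99%) and the forkhead motif TGTTTAC (3.17%) were in none of the 7 genes' windows. The E-box CANNTG was in the Kdr and Tek windows and not in those of Flt1 and Etv2 (66.2% of all promoters). A match is a description of letters and not a bound site.

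By the GENCODE vM21 annotation (GRCm38), all 9 are protein-coding. Kdr lies at chr5:75932827-75978458 with 29 merged exons, Flt1 at chr5:147561604-147726011, Tek at chr4:94739289-94874976, Tie1 at chr4:118471191-118490061, Cdh5 at chr8:104101625-104144511, Pecam1 at chr11:106654217-106750628, Emcn at chr3:137341067-137432185, Egfl7 at chr2:26580014-26593120 and Etv2 at chr7:30633616-30635852. Egfl7 shares 264 exon bases with Gm20532 and 64 with Agpat2 on the opposite strand, so its reads are less certain. No other gene's exons overlapped those of the remaining 8.

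In gonadal somatic cells the endothelial genes were highest at E12.5 and lowest in the 6-week ovary. Their summed level in CPM (counts scaled to a common library total) was 391 to 398 in E12.5 libraries, 243 to 244 in E13.5, 272 to 274 in E16.5 and 87.3 to 94.8 in P6w. In such bulk libraries, fewer endothelial cells and less RNA per cell cannot be told apart. Folds below are log2 differences with their standard error (SE) from edgeR's quasi-likelihood test, called at a Benjamini-Hochberg adjusted p below 0.05 over 16398 genes.

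Kdr, the main VEGF receptor, measured 81.3 and 79.2 CPM in the E12.5 libraries, 32.8 and 30.5 in E13.5, 58.9 and 44.6 in E16.5, and 5.88 and 7.16 in P6w. No group overlapped another: E12.5 was highest, E16.5 stood between E13.5 and E12.5, and P6w was lowest. Kdr fell by 1.34 ± 0.16 (SE) on the log2 scale from E12.5 to E13.5 (edgeR adjusted p = 1.53e-05), and its log2 difference between P6w and E12.5 was -3.62 ± 0.19 (4.00e-10). From E13.5 to E16.5 it rose by 0.71 ± 0.16 (0.0014).
Flt1, the second VEGF receptor, followed the same order, with 29 and 27.9 CPM in the E12.5 libraries, 10 and 9.3 in E13.5, 20.4 and 19.8 in E16.5, and 3.1 and 4.99 in P6w. Its fall to E13.5 was 1.56 ± 0.19 on the log2 scale (edgeR adjusted p = 2.32e-05), and its rise from E13.5 to E16.5 was 1.06 ± 0.20 (0.000345).
Tek, the angiopoietin receptor, had 11.2 and 12.8 CPM in the E12.5 libraries, 4.17 and 2.91 in E13.5, 8.4 and 6.18 in E16.5, and 1.47 and 1.08 in P6w. Its log2 difference was -1.76 ± 0.27 at E13.5 (edgeR adjusted p = 0.000113) and -3.23 ± 0.32 at P6w against E12.5 (7.39e-07). Here too the 4 groups did not overlap.
Tie1, the partner of TIE2, had 27.4 and 24.1 CPM in the E12.5 libraries, 8.89 and 11.4 in E13.5, 12.2 and 9.18 in E16.5, and 5.15 and 5.83 in P6w. Unlike the other 3 receptors, its E13.5 and E16.5 values overlapped (log2 difference 0.09 ± 0.21, edgeR adjusted p = 0.754). That the receptors differ from each other in this step was not tested.

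**Figure D1:**
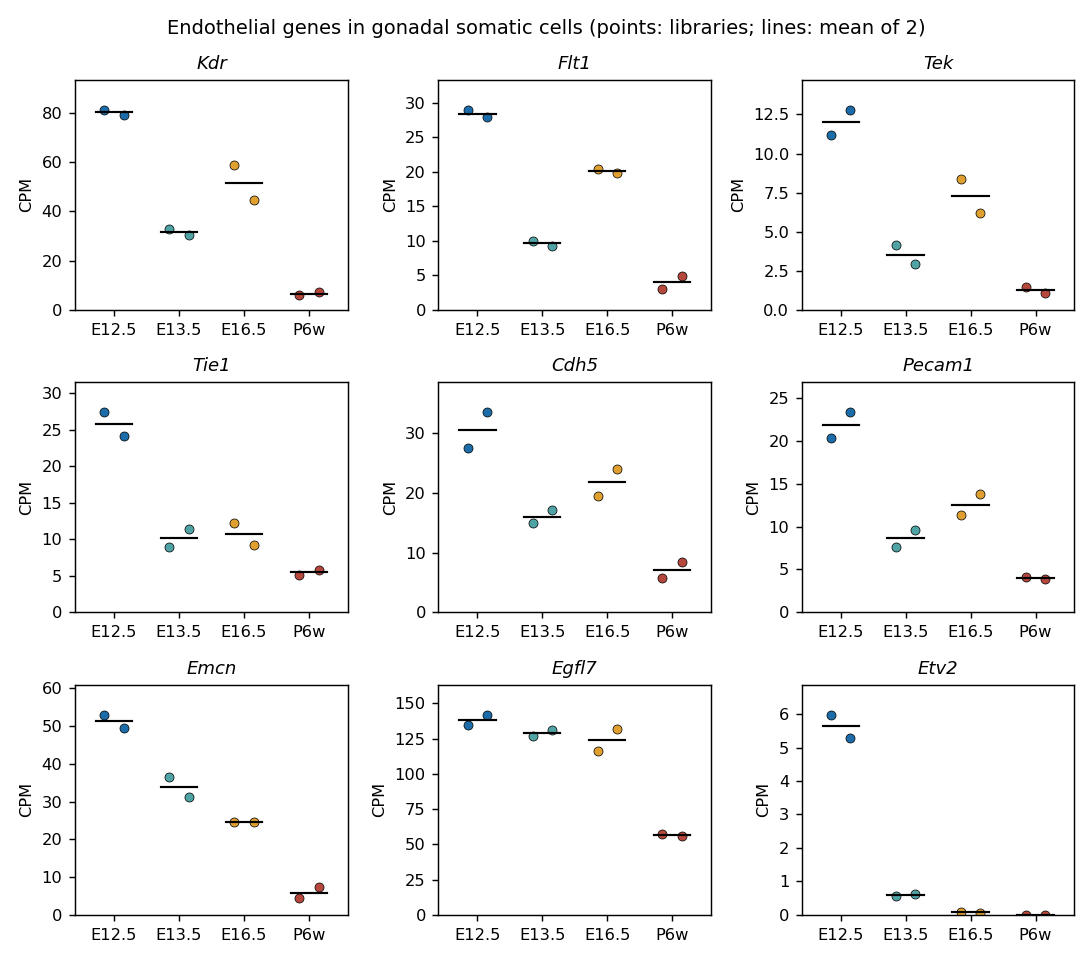
Level of each of the 9 genes (CPM, linear axis from 0, a separate scale per gene) in each library of gonadal somatic cells of the 4 stages; points are libraries and lines the mean of 2. P6w is lowest and E12.5 highest for all 9 genes, and Etv2 is near 0 after E13.5.

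Among the junction and surface genes, Cdh5 measured 27.5 and 33.4 CPM in the E12.5 libraries, 14.9 and 17.1 in E13.5, 19.5 and 23.9 in E16.5, and 5.72 and 8.49 in P6w. It fell by 0.93 ± 0.20 on the log2 scale from E12.5 to E13.5 (edgeR adjusted p = 0.00144), while its difference between E16.5 and E12.5 missed the threshold (-0.49 ± 0.19, 0.0598).
Pecam1 had 20.3 and 23.3 CPM in the E12.5 libraries, 7.67 and 9.58 in E13.5, 11.3 and 13.8 in E16.5, and 4.17 and 3.91 in P6w. It fell by 1.34 ± 0.20 on the log2 scale from E12.5 to E13.5 (edgeR adjusted p = 9.84e-05).
Emcn declined at every step, with 53 and 49.4 CPM in the E12.5 libraries, 36.5 and 31.3 in E13.5, 24.5 and 24.7 in E16.5, and 4.41 and 7.32 in P6w. Its log2 difference was -0.59 ± 0.18 at E13.5 against E12.5 (edgeR adjusted p = 0.0126) and -0.46 ± 0.18 at E16.5 against E13.5 (0.0406).
Egfl7, the secreted factor, was almost level in the embryo, with 135 and 142 CPM in the E12.5 libraries, 127 and 131 in E13.5, and 116 and 132 in E16.5. It was lower at P6w, at 57.4 and 56 CPM. The difference of E13.5 from E12.5 was -0.10 ± 0.12 on the log2 scale (edgeR adjusted p = 0.508), and that of P6w from E12.5 was -1.29 ± 0.12 (3.20e-07).

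Etv2 was the gene with the steepest decline. Its counts were 129 and 107 in the E12.5 libraries, 11 and 11 in E13.5, 2 and 1 in E16.5, and 0 and 0 in P6w. The E12.5 level was 74.2 times the E16.5 level (95% exact Poisson interval 25.1 to 362, covering counting error only), and P6w was at least 22.8-fold lower than E12.5, taking 3 counts per library as the limit that a count of 0 allows. The fall from E12.5 to E13.5 was 3.23 ± 0.45 on the log2 scale. Its direction was fixed by the filter on low counts, which Etv2 passed only through E12.5, so no p-value is given. Between E16.5 and P6w no difference in Etv2 was detectable at this depth (edgeR adjusted p = 0.142).

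Per kilobase of exon, Egfl7 stood far above the others at E12.5, with 38.7 ± 1.47 CPM per kb (SD, n = 2). Emcn (9.47 ± 0.47), Kdr (8.89 ± 0.17) and Cdh5 (7.24 ± 0.98) followed, then Etv2 (5.37 ± 0.47), Tie1 (5.24 ± 0.47) and Pecam1 (3.5 ± 0.34). Tek (2.55 ± 0.25) and Flt1 (2.11 ± 0.06) were lowest. The values of the 2 libraries overlapped between the neighbours Etv2 and Tie1 only.

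Etv2 passed the filter on low counts only through the E12.5 libraries, so its being lower than E12.5 was fixed by that filter, and it is left out of the counts against E12.5. From E12.5 to E13.5, 7 of the other 8 genes fell and none rose (45.9% of all genes tested were called, 22.1% as lower). The log2 differences of the 8 ran from -1.76 to -0.10, against a median of 0.03 over all genes. At E16.5 against E12.5, 6 of the 8 were lower (37.6% called, 17.1% lower), the exceptions being Cdh5 and Egfl7. At P6w all 8 were lower than at E12.5 (52.9% called, 27.5% lower), and all 9 genes lower than at E13.5 (59.7%, 31% lower) and 8, all but Etv2, lower than at E16.5 (56.1%, 29.8% lower). Between E13.5 and E16.5 the genes went both ways, with Kdr, Flt1, Tek and Pecam1 higher and Emcn and Etv2 lower (54.1% of all genes called, 28.7% higher and 25.4% lower). These comparisons share libraries and so are not separate evidence.

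Values that moved with these falls were those of other cells' markers. The summed level of 10 erythroid genes was 13900 to 15400 CPM in E12.5 libraries, 30900 to 33800 in E13.5, 9980 to 13900 in E16.5 and 241 to 270 in P6w. Macrophage and leukocyte genes (9) summed to 75.6 to 80.1, 134 to 135, 163 to 173 and 271 to 279 CPM in the same order, and pericyte genes (6) to 88.4 to 89.8, 58.6 to 66.6, 90.5 to 94.2 and 32 to 32.2 CPM. Their part in the results was not tested.
Gene length also moved with the E13.5 libraries: across 16169 genes, the log2 difference of E13.5 from E12.5 had a Spearman correlation of -0.494 with exon length. With a length term for each library (33.6% of genes called in this comparison) Kdr still fell, by 0.83 ± 0.14 on the log2 scale (edgeR adjusted p = 0.000478), as did Flt1, by 0.79 ± 0.19 (0.00608), but the call for Emcn was lost (-0.43 ± 0.17, 0.0708). In E16.5 against E13.5 (48.2% called with it) the length term ended the calls for Kdr (0.22 ± 0.14, 0.204), Flt1 (0.35 ± 0.19, 0.15) and Pecam1 (0.30 ± 0.20, 0.244), and left Tek higher (0.97 ± 0.27, 0.00781). In E16.5 against E12.5 it ended the call for Flt1 (-0.44 ± 0.18, edgeR adjusted p = 0.0728) and added one for Cdh5 (-0.50 ± 0.19, 0.0474). With the sequencing lane as a term, P6w against E13.5 lost the calls for Tek (edgeR adjusted p = 0.0824), Tie1 (0.247) and Etv2 (0.0987), and E16.5 against E13.5 lost that for Pecam1 (0.148). Only E16.5 was split between lanes, so this term rests on its pair of libraries. Lane and stage cannot otherwise be told apart for P6w against E12.5 or E13.5. At E16.5 against E12.5, leaving out E12.5 replicate 2 lost the calls for Pecam1, Tek and Flt1, in a fit without a second E12.5 library.

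The other genes of the vascular pathways did not move as a block. Of 11 VEGF, angiopoietin and related ligands, 1 was higher and 5 lower at E13.5 than at E12.5. Of 18 other receptors and signalling genes 1 was higher and 10 lower, of 19 surface and junction genes 2 and 6, and of 18 endothelial and blood transcription factors 1 and 10, where 45.9% of all genes were called and 22.1% were lower. With the length term these counts became 0 higher and 4 lower, 1 and 7, 2 and 10, and 3 and 9, in the same order. The largest falls were those of the SOX factor Sox7 (1.02 ± 0.64 CPM at E13.5 against 6.91 ± 1.97 at E12.5, SD, n = 2), the MADS-box factor Mef2c (9.78 ± 0.76 against 33.8 ± 1.88) and the VEGF and semaphorin co-receptor Nrp2 (4.89 ± 1.27 against 16 ± 1.98). The largest rises were those of the blood factor Lyl1 (21.8 ± 2.13 against 6.2 ± 0.73 CPM), of Gpihbp1, which holds lipoprotein lipase on capillaries (25.6 ± 0.98 against 14.1 ± 0.10), and of the receptor partner Ramp2 (283 ± 5.06 against 168 ± 10.6).
At P6w against E12.5, where 27.5% of all genes were lower, the counts were 1 higher and 7 lower of the 11 ligands, 1 and 17 of the 18 receptors and signalling genes, 2 and 12 of the 19 surface genes, and 2 and 14 of the 18 transcription factors. The blood and endothelial factor Tal1 was at 0.29 ± 0.18 CPM in P6w against 11.1 ± 1.25 at E12.5, and Hhex at 0.494 ± 0.11 against 8.18 ± 1.86. The adhesion gene Jam2 went the other way, at 156 ± 11.4 CPM against 5.16 ± 0.88, as did Angpt2, an angiopoietin that opposes TIE2 signalling (35.6 ± 3.20 against 1.40 ± 0.74), and the Notch target Hey2 (25.9 ± 0.28 against 1.37 ± 0.30).
At E16.5 against E12.5, where 17.1% of all genes were lower, 2 ligands were higher and none lower, against 1 and 8 receptors, 4 and 7 surface genes and 7 and 6 transcription factors. Lmo2, a partner of Tal1, rose to 35.8 ± 2.15 CPM from 6.56 ± 0.61, while Erg, an endothelial ETS factor, fell to 5.52 ± 0.77 from 14.6 ± 0.69.

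Over the 8 stage libraries, the genes outside the 9 whose level was most like the mean of the 9 were Dzip1l (Pearson r = 0.997), Tmem108 (0.996), Rgl1 (0.995), Spats2 (0.994) and Cdh6 (0.993). Among the 9 themselves, each of which is part of that mean, r with it ran from 0.791 for Etv2 to 0.981 for Pecam1. With 4 stages of 2 libraries, such values mainly reflect the same order of stages.

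In the V580 cells, Kdr and Flt1 parted from the other endothelial genes. Both climbed from day 4 to day 10 and ended above the E12.5 gonadal cells, while Cdh5, Pecam1, Tek, Tie1 and Emcn stayed below them. FPKM values were tested as log2(FPKM + 1) with limma, called at a Benjamini-Hochberg adjusted p below 0.05 and at least 2-fold over 11512 genes, and folds on this scale understate the change of low genes. Pecam1, Tek and Emcn passed the filter on low values only through the 3 E12.5_GC libraries, so their differences from E12.5_GC were fixed by that filter and are given as values.

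Kdr measured 17.9, 10.7 and 18.1 FPKM in E12.5_GC. In V580 cells it was 1.06, 0.989 and 1.03 at day 4, 16.8, 18.5 and 17.8 at day 6, 44.3, 45.8 and 43.9 at day 8, and 50.2, 50.7 and 51.7 at day 10. Day 4 lay below every E12.5_GC library, day 6 overlapped them, and days 8 and 10 lay above them. The rise from day 4 to day 6 was 3.20 ± 0.13 (SE) on the log2(FPKM + 1) scale (limma adjusted p = 1.56e-10) and from day 6 to day 8 it was 1.29 ± 0.13 (3.57e-06). Against E12.5_GC, day 6 differed by 0.21 ± 0.13 (0.175) and day 10 by 1.68 ± 0.13 (3.53e-08).
Flt1 was at 2.76, 1.45 and 2.48 FPKM in E12.5_GC. It went from 0.794, 0.682 and 0.642 at day 4 to 4.18, 3.58 and 3.4 at day 6, 7.15, 7.35 and 7.4 at day 8, and 11.9 to 13.7 at day 10. The libraries of each day lay above those of the day before. Its difference from E12.5_GC was 1.39 ± 0.12 at day 8 (limma adjusted p = 1.68e-07) and 2.11 ± 0.12 at day 10 (1.09e-09). At day 6 it was 0.57 ± 0.12 (0.000968), short of the 2-fold limit.

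Tek had 4.6, 2.93 and 4.18 FPKM in E12.5_GC and 0.105 to 0.258 in the 12 V580 libraries. Tie1 was the gene with an early, passing level: 3.27, 3.63 and 3.05 FPKM at day 4, then 0.00977 to 0.137 from day 6 on, against 16, 11.1 and 13 in E12.5_GC. Its fall from day 4 to day 6 was 1.99 ± 0.10 on the log2(FPKM + 1) scale (limma adjusted p = 6.26e-10). The 4 receptors thus had 3 different courses, with Kdr and Flt1 rising, Tie1 falling and Tek low throughout.
Cdh5 had 35, 20.4 and 29.1 FPKM in E12.5_GC. In V580 cells it rose from 0.199, 0.144 and 0.208 at day 4 to 3.24, 2.28 and 1.93 at day 6 (1.54 ± 0.16, limma adjusted p = 2.52e-06), and was 3.26, 3.49 and 3.44 at day 8 and 3.34, 3.92 and 2.85 at day 10. No V580 library reached the lowest E12.5_GC library.
Pecam1 had 13.9, 9.65 and 13 FPKM in E12.5_GC and 0.0564 to 0.301 in the V580 days. Emcn had 5.28, 4.67 and 4.82 in E12.5_GC and 0.0299 to 0.4 in the V580 days. Egfl7 changed least, with 8.02, 8.45 and 7.15 FPKM in E12.5_GC, 5.43, 5.58 and 5.58 at day 4, 3.03, 3.24 and 2.77 at day 6, 3.47, 3.7 and 3.01 at day 8, and 5.17, 4.41 and 4.24 at day 10. Against E12.5_GC Egfl7 was lower by 1.14 ± 0.08 on the log2(FPKM + 1) scale at day 6 (limma adjusted p = 1.24e-08) and by less than 2-fold at days 4 and 10.

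**Figure D2:**
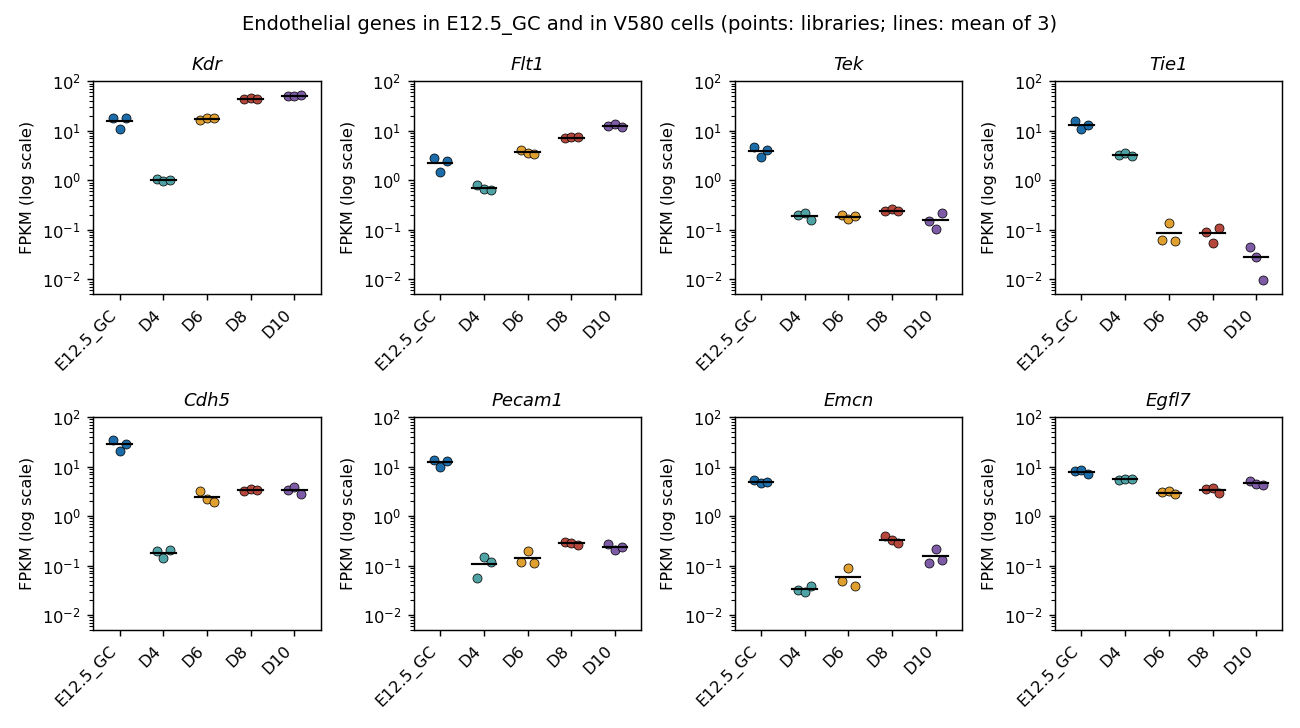
FPKM of 8 genes (log axis, 0.005 to 100) in E12.5_GC and in V580 cells at days 4, 6, 8 and 10; points are libraries and lines the mean of 3. Kdr and Flt1 climb above the E12.5_GC level, Tie1 drops after day 4, and Cdh5, Pecam1, Tek and Emcn stay below it.

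The counts against E12.5_GC are over the 5 genes that passed the filter without it, Kdr, Flt1, Tie1, Cdh5 and Egfl7. At day 4, 3 of the 5 were lower (Kdr, Cdh5 and Tie1) and none higher (20.4% of all genes tested were called, 9.13% higher and 11.3% lower). At day 6, Cdh5, Tie1 and Egfl7 were lower and none higher (15.2%; 7.06% and 8.11%). At day 8 the same 3 were lower and 2, Kdr and Flt1, higher (13%; 6.9% and 6.07%), and at day 10 Cdh5 and Tie1 were lower and the same 2 higher (16.4%; 9.16% and 7.23%). Between V580 days, day 6 against day 4 called Kdr, Flt1 and Cdh5 as higher and Tie1 as lower (5.08%), day 8 against day 6 called Kdr as higher (2.55%), and day 10 against day 8 called none (1.29%), although 3 of the 8 had a limma adjusted p below 0.05 without the fold limit, with Flt1 at 0.72 ± 0.12 (0.000523). No share over all genes is at hand for the rule without the fold limit. The comparisons with E12.5_GC share its 3 libraries.
E12.5_GC replicate 2 was the lowest of the 3 for Kdr, Flt1, Tek, Tie1, Cdh5, Pecam1 and Emcn and the highest for Egfl7. The 3 erythroid genes listed in this table summed to 4430, 1690 and 1040 FPKM in replicates 1 to 3 and to at most 0.739 in the V580 days. The 5 mesothelial genes summed to 61 to 73.4 FPKM in E12.5_GC, 172 to 200 at day 4, 273 to 281 at day 6 and 375 to 412 at days 8 and 10. The 5 interstitial genes listed summed to 215 to 236 FPKM in E12.5_GC, 70.3 to 81.7 at day 4, 169 to 178 at day 6, 511 to 649 at day 8 and 1340 to 1650 at day 10. The part of these in the results was not tested.

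Of the wider vascular lists, 4 of 14 other receptors and signalling genes, 6 of 10 surface and junction genes, 4 of 15 transcription factors and 2 of 10 ligands also passed the filter only through E12.5_GC and are left out of these counts. At day 6 against E12.5_GC, none of the remaining 10 receptors and signalling genes was higher and 6 were lower, of 4 surface and junction genes 1 was higher and 3 lower, and of 11 transcription factors 3 and 6, where 7.06% of all genes were higher and 8.11% lower. Plvap, which forms the diaphragms of endothelial pores, was at 0.418 ± 0.09 FPKM (SD, n = 3) against 32.9 ± 9.18. The apelin receptor Aplnr, one of those left out, was at 0.0507 ± 0.04 against 14.9 ± 3.54. The flow-responsive factor Klf2 was at 7.75 ± 1.43 against 130 ± 99.9, with a wide spread in E12.5_GC.
Of the 8 remaining ligands 4 were higher and none lower. Efnb2, the ephrin of arteries, was at 58.3 ± 0.08 FPKM against 12.6 ± 5.04 and the VEGF family member Pgf at 7.63 ± 0.35 against 0.951 ± 0.23. The transcription factor Gata2, at 33.6 ± 2.17 against 3.01 ± 1.17, had the largest rise at day 6 among these lists. Gata2 and Pgf also rose from day 4 to day 6, from 6.21 ± 0.08 and 1.40 ± 0.11 FPKM, in the step where Kdr rose. Eng, a co-receptor for TGF-beta family ligands, fell from 7.03 ± 0.28 at day 4 to 3.02 ± 0.21 at day 6 and was back at 8.41 ± 1.39 at day 8.

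Over the 15 libraries of E12.5_GC and V580 days, the genes most like the mean of the 8 were Chst3 (Pearson r = 0.991), Ngfr (0.991), Inhbb (0.989), Cited2 (0.989) and Arhgap26 (0.988). Within the 8, Cdh5, Emcn, Pecam1 and Tek had r of 0.939 to 0.963 with that mean, Egfl7 0.692 and Tie1 0.674. Kdr (0.288) and Flt1 (0.0389) were least like it. Each of the 8 is part of the mean it was set against, and Pecam1, Tek and Emcn passed the filter only through E12.5_GC. The r values within the 8 follow in part from how that mean was built. These libraries share 5 groups, and most of the pattern is the gap between E12.5_GC and the rest.

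At 24 h, Pecam1 was the highest of the 8 listed genes (13.1 to 24.4 FPKM), followed by Egfl7 (5.18 to 7.75 FPKM), and Cdh5 and Emcn were at or close to 0. Cdh5 was at 0.138 FPKM or less in all 16 libraries of 24 h and 48 h. Emcn was listed at 0 in 15 of them and at 0.0171 in the other. Neither passed the filter, which left 6 genes tested among 10644.
Pecam1 had 13.6 and 13.1 FPKM in Con at 24 h, 15.5 and 14.8 in Vc, 21.9 and 20.6 in AM580 and 24.4 and 23.1 in V580. At 48 h it had 4.38 and 4.76 in Con, 6.46 and 6.97 in Vc, 3.97 and 4.37 in AM580 and 5.88 and 5.45 in V580. The 24 h values did not overlap the 48 h values in any treatment. The fall in Con from 24 h to 48 h was 1.37 ± 0.06 (SE) on the log2(FPKM + 1) scale (limma adjusted p = 6.18e-11). The summed level of 7 pluripotency genes fell beside it, from 3450 to 3750 FPKM in Con at 24 h to 1770 to 1820 at 48 h, and the part of that in the result was not tested.
At 24 h Pecam1 differed from Con by 0.63 ± 0.06 in AM580 (limma adjusted p = 4.83e-06) and by 0.78 ± 0.06 in V580 (2.42e-07), under the 2-fold limit.

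Tie1 was higher wherever AM580 was given. It had 0.389 and 0.338 FPKM in Con at 48 h and 0.302 and 0.328 in Vc, against 4.29 and 3.66 in AM580 and 4.32 and 4.1 in V580. The log2(FPKM + 1) difference from Con was 1.86 ± 0.08 in AM580 (limma adjusted p = 6.79e-11) and 1.93 ± 0.08 in V580 (4.65e-11), and -0.05 ± 0.08 in Vc (0.723).
At 24 h Tie1 stood at 0.445 and 0.597 FPKM in Con, 0.528 and 0.371 in Vc, 0.942 and 0.92 in AM580 and 0.986 and 0.892 in V580. The difference was then 0.35 ± 0.08 in both AM580 (limma adjusted p = 0.00724) and V580 (0.00363), short of 2-fold. The level of Tie1 at 48 h of V580 was close to that of the day 4 cells given above, in separate libraries.

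Tek moved down, from 1.74 and 1.74 FPKM in Con at 48 h to 0.8 and 1.08 in AM580 and 0.499 and 0.465 in V580, with 1.67 and 1.36 in Vc. The difference in V580 was -0.89 ± 0.10 on the log2(FPKM + 1) scale (limma adjusted p = 4.61e-06), under the 2-fold limit. With a pseudocount of 0.1 it was past that limit.
Kdr was low, with 1.21 and 1.29 FPKM in Con at 24 h and 0.15 and 0.21 at 48 h. AM580 at 48 h gave 0.35 and 0.298, V580 0.116 and 0.127, and Vc 0.077 and 0.0637. None of the treatment differences of Kdr had an adjusted p below 0.05 in limma on log2(FPKM + 1), a scale that understates the change of genes this low. In estimated fragments at 48 h, Kdr had 27 and 40 in Con and 15 and 10 in Vc. It had 62 and 51 in AM580 and 21 and 21 in V580.
Flt1 had 2.51 and 2.19 FPKM in Con at 24 h and 1.36 and 1.36 in V580 (-0.50 ± 0.07, limma adjusted p = 0.000102), and 0.656 and 0.851 in Con at 48 h against 0.622 and 0.717 in V580. Egfl7 stayed between 5.18 and 7.75 FPKM in all 16 libraries.

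**Figure D3:**
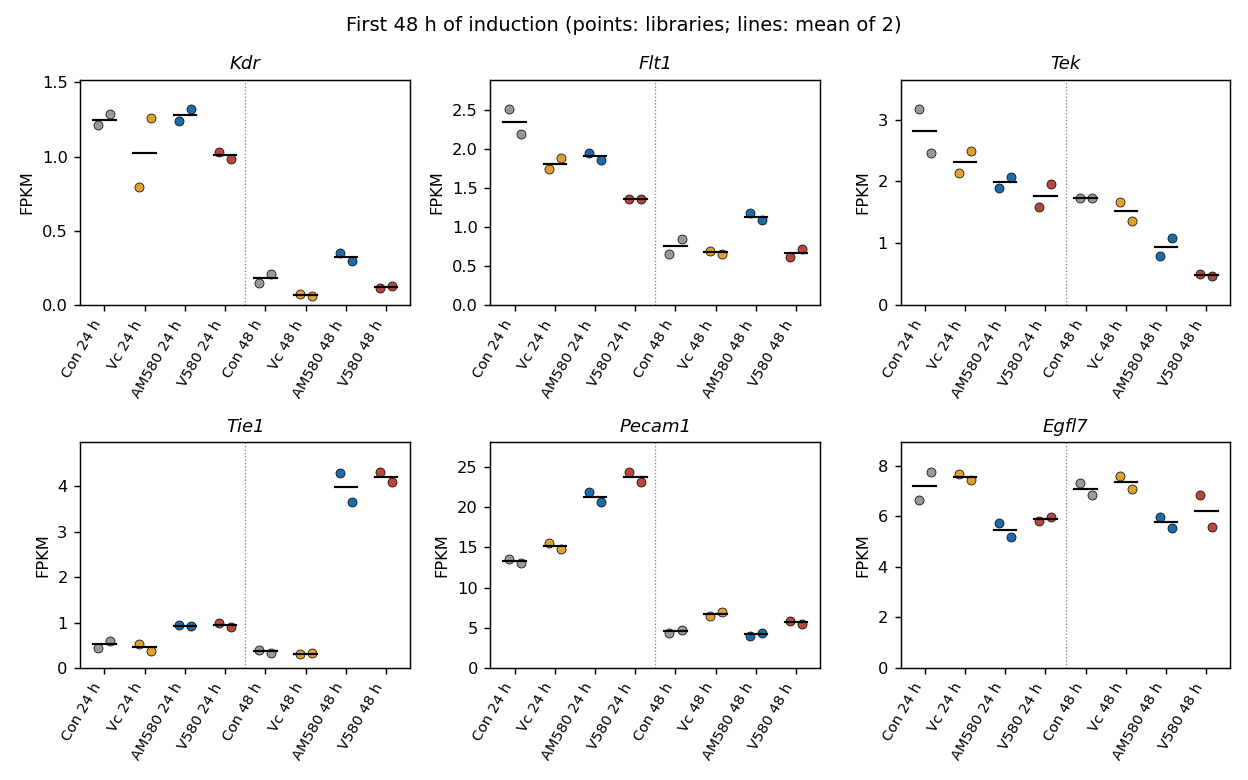
FPKM of the 6 tested genes (linear axes from 0, a separate scale per gene) at 24 h and 48 h in Con, Vc, AM580 and V580; points are libraries, lines the mean of 2, and the dotted line parts the 2 times. Tie1 stands at 3.66 to 4.32 FPKM in AM580 and V580 at 48 h and below 1 elsewhere, and Pecam1 is lower at 48 h than at 24 h.

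Past both limits, Vc called none of the 6 genes at 24 h (0.0846% of all genes tested) or 48 h (0.047%), AM580 and V580 called none at 24 h (0.404% and 0.695%), and both called Tie1 at 48 h (3.23% and 3.18%). Con at 48 h against 24 h called Pecam1 (7.72%). Without the fold limit, the counts with a limma adjusted p below 0.05 were 1 for Vc, 4 for AM580 and 5 for V580 at 24 h, and 1, 4 and 3 at 48 h. No share over all genes is at hand for this looser rule, and the shares above were counted with the fold limit. These counts therefore cannot be set against them. Whether an effect differed between 48 h and 24 h was tested as well: none of the 6 genes passed for Vc (2.9% of all genes), 3 passed for AM580 (34.9%), namely Tie1, Pecam1 and Flt1, and 4 for V580 (33.9%), the same 3 and Tek. Vascular lists held few calls here. At 48 h 2 of 9 transcription factors tested, Gata2 and Sox7, were higher in AM580, and 1 receptor, Flt4, was higher in V580; these 3 were named after their values were seen. In V580 at 48 h Klf2 was higher (26.4 ± 1.01 against 10.2 ± 1.77 FPKM, SD, n = 2) and the surface gene Mcam lower (7 ± 0.29 against 16.8 ± 0.20).

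In the 10x library of V580 day 6 cells, Kdr, Egfl7 and Flt1 were common and the other 6 genes were rare. Kdr had a UMI in 3771 of 15315 cells (24.6%, 95% exact binomial interval 23.9 to 25.3), Egfl7 in 3830 (25%) and Flt1 in 1678 (11%). Cdh5 had a UMI in 136 cells (0.888%), Pecam1 in 107 (0.699%), Tek in 73, Etv2 in 51, Emcn in 29 and Tie1 in 22. The study's methods speak of replicate 10x runs, but the barcodes of the deposited table carry 1 suffix and cannot be split, so it was read as 1 library. With 1 library there is no test, and intervals cover counting error only. Of all cells, 53.3% had a UMI of none of the 9 genes, 32.1% of 1 and 12.9% of 2.

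The cells were grouped into 12 clusters with the 9 genes kept out of the clustering. Kdr, Flt1 and Cdh5 were high in different clusters, and Egfl7 and Tek were highest in a cluster where Flt1 was high. Clusters are given by number and leading genes. Kdr was spread over the large clusters 1 (98.9 CPM of summed UMIs, 47.7% of 2973 cells), 2 (84.2 CPM, 51.5% of 2071) and 3 (63.4 CPM, 37% of 1550), which together with cluster 4 (124 CPM) held most of its UMIs. Cluster 1 was led by Igfbp5, Bnc2, Upk3b and Aldh1a2, cluster 2 by the cell division genes Aspm and Mki67, and cluster 3 by Lum, Myh11, Col1a1 and Acta2. Cluster 4 was led by mitochondrial genes, with a median mitochondrial share of 15.8%.
In the remaining clusters of over 50 cells Kdr was at 9.95 to 23.3 CPM. A cluster of 66 neuron-like cells (cluster 10, led by Sst, Ina, Nefm and Tubb3, with 5 of 5 neuron markers) had Kdr in 7.58% of cells at a median of 9749 UMIs, which is given as a background share from cells of an unrelated kind, against 47.7% in cluster 1 at 12133 UMIs.
Thinned to 3000 UMIs a cell, with 5078 shallower cells left out, the Kdr share was 22% in cluster 1, 19.6% in cluster 2, 15.7% in cluster 3, 29.6% of the 355 cells left in cluster 4, 2.45% in cluster 6 and 0 of 44 in cluster 10.

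Flt1, by contrast, lay in clusters where Kdr was low. It was at 342 CPM in cluster 9 (268 cells, led by Lama1, Kit and Lrp2), 221 CPM in cluster 7 (932 cells, led by Srgn, Cubn and Rbp4) and 71.1 CPM in cluster 5, against 3.84 in cluster 1 and 3.07 in cluster 2. Cluster 7 alone held 77.2% of the Flt1 UMIs, and 76.2% of its cells had one. None of 66 neuron-like cells had a Flt1 UMI, which allows a share of up to 4.55% (3 of 66). Clusters 9, 7 and 5 also had the highest summed levels of 8 extraembryonic endoderm genes (2910, 1420 and 825 CPM, against 80.8 to 283 in the others).
Egfl7 was highest in the same clusters 7 (87.9 CPM) and 9 (75.8 CPM) but was above 15 CPM in every cluster. Tek was low, with 55 of its 87 UMIs in cluster 7. Pecam1 had 49 of its 152 UMIs in cluster 6, led by Cxcl15 and Stra8.
Cdh5 was the most concentrated gene: 436 of its 502 UMIs (86.9%) came from cluster 8, at 67.1 CPM, where 14% of 658 cells had one. Cluster 8 was led by Fthl17a, Rhox9, Serpinb9e, Sct and Tfap2c, not endothelial genes, and it was not named. In the other clusters of over 50 cells Cdh5 was at 1.57 CPM or less.

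**Figure D4:**
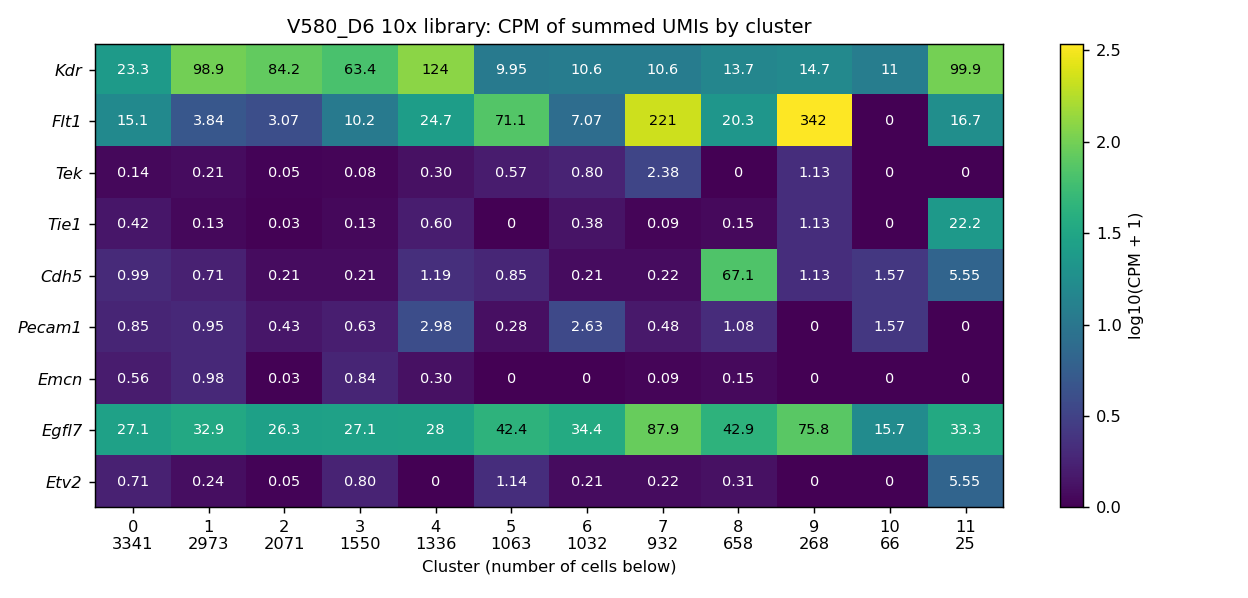
CPM of summed UMIs of each of the 9 genes (rows) in each of 12 clusters of V580 day 6 cells (columns, with the number of cells); the colour is log10(CPM + 1) and the printed number the CPM. Kdr is highest in clusters 1, 2, 4 and 11, Flt1 in 9 and 7, and Cdh5 in 8, so the 3 genes are high in different clusters.

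The surface and junction genes were low in every cluster. The 19 surface and junction genes of the fixed list summed to 11.9 to 72.4 CPM in every cluster, with none of them at 50 CPM or more in any. Single genes of the other lists were higher: Ramp2 (78 CPM) and Sox17 (152 CPM) in cluster 7, Nrp2 (121 CPM) in cluster 10, Gata2 (155 CPM) in cluster 8 and Nr2f2 (389 CPM) in cluster 1, named after their values were seen. Scrublet marked 1 cell as a doublet, too few for the caller to have worked, so doublets were not removed. At a finer clustering of 17 clusters, 5 of the 9 genes kept their highest cluster and Kdr was highest (152 CPM) in a group of 830 cells of which 99.2% came from cluster 1.

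Few cells had Kdr together with Cdh5 or Pecam1, and few cells had either partner at all. Of the 3771 cells with a Kdr UMI, 43 had a Cdh5 UMI (1.14%, 0.826 to 1.53), against 93 of 11544 cells without Kdr (0.806%, 0.651 to 0.986). For Pecam1 it was 35 cells (0.928%, 0.647 to 1.29) against 72 (0.624%, 0.488 to 0.785). The intervals overlapped in both comparisons, and the cells with Kdr were deeper, at a median of 14300 against 4885 UMIs. In the reverse direction, 31.6% of the 136 cells with Cdh5 had Kdr (23.9 to 40.1), against 24.6% of cells without Cdh5 (23.9 to 25.3). Among the 107 cells with Pecam1 it was 32.7% (24 to 42.5), against 24.6% (23.9 to 25.3). The cells with Cdh5 or Pecam1 were deeper too, at medians of 16634 and 17351 UMIs against 9221 in the cells without.
After thinning to 3000 UMIs, with medians before thinning of 13399 and 13488, the Cdh5 shares were 0.671% and 0.389% and the Pecam1 shares 0.47% and 0.229%, again with overlapping intervals. Flt1 was found in 8.14% of cells with Kdr and 11.9% of cells without it.
Most of the overlap of Kdr with Cdh5 lay in cluster 8. Of the 43 cells, 25 lay in cluster 8, where 25 of 49 Kdr cells (51%) had Cdh5 against 67 of 609 others (11%), and where none of the 49 had Pecam1. Cells with both Kdr and Cdh5 had a median of 21172 UMIs over all clusters, against 3013 for all cells of cluster 8. Depth within that cluster was not compared. In cluster 1, with 1419 Kdr cells, 6 had Cdh5 and 11 had Pecam1, against 3 and 9 of 1554 others. The Cdh5 share was also higher in Kdr cells of clusters 0, 2, 3, 4 and 10, on 1 to 5 cells each. No Kdr cell of clusters 5, 6, 7, 9 and 11 had Cdh5.

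A few cells held several of the genes together. Kdr, Cdh5 and Pecam1 together were found in 5 cells, and all 5 were among 6 cells that had at least 3 of Cdh5, Pecam1, Tie1, Tek and Emcn. Those 6 cells (0.0392% of 15315), picked after the values were seen, held 6094 to 21916 UMIs and lay in clusters 0, 1 and 4. All 6 had Kdr (2 to 7 UMIs), Flt1 (3 to 14) and Egfl7 (5 to 21), and none had Etv2.
Genes that played no part in picking them were also there. Of the fixed lists, 10 of 19 surface and junction genes and 14 of 18 other receptors and signalling genes were in at least 3 of the 6 cells. So were 11 of 18 transcription factors and 3 of 11 ligands. No share over all genes is at hand for this rule, so these counts have no background beside them. Some listed genes were common in the whole library, such as Nr2f2 (62.9% of cells), Vegfb (42.1%) and Gata2 (29.9%). Cd34, Ecscr, Mmrn2 and S1pr1 were found in 6 of 6, and in 24, 261, 1022 and 114 of all 15315 cells. Robo4, an endothelial guidance receptor, was found in 5 of 6 against 1 of the other 15309 cells, and Cd93 in 5 against 2. Cldn5, the tight junction claudin of endothelium, had 45 UMIs in 4 of the 6 cells and was found in 11 of the others, and the endothelial ETS factor Erg in 3 against 7.
Summed over the 6 cells, the 19 surface and junction genes were at 3700 CPM against 31.4 in all other cells, and the 18 other receptors and signalling genes at 1910 against 100. Erythroid (10 genes) and macrophage and leukocyte (9 genes) UMIs were 0. At 6 cells this is a description with no test.

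**Figure D5:**
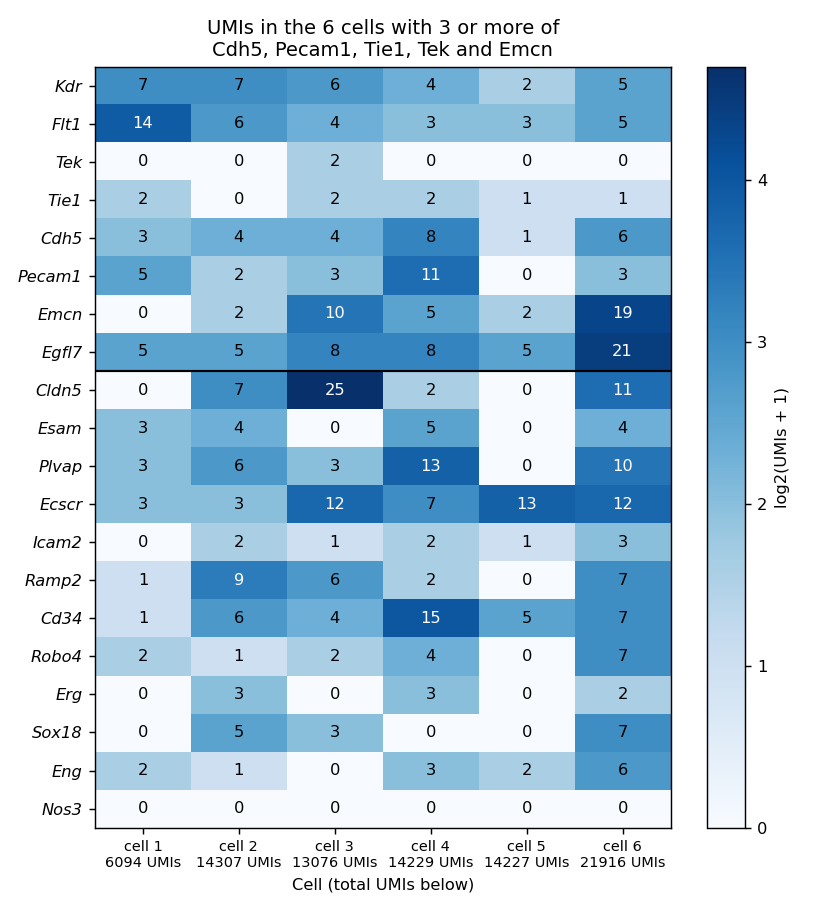
UMIs (printed number; colour, log2(UMIs + 1)) of 8 of the 9 genes, above the line, and of 12 further endothelial genes, below it, in each of the 6 cells with at least 3 of Cdh5, Pecam1, Tie1, Tek and Emcn. Every cell has Kdr, Flt1, Egfl7, Cdh5, Ecscr and Cd34, and none has Nos3.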

How the data were processed

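The libraries were bulk RNA-seq and 10x RNA-seq. The authors deposited read counts per gene for the stages and FPKM for the V580 days, E12.5_GC and treatments; their notes name Trim Galore, FastQC, HISAT2, SAMtools, featureCounts and RSEM without versions, on mm10. The 10x UMI counts were deposited by the authors as a Cell Ranger matrix on mm10. Strand setting in counting is not given in the sources used here. A further table with 10 sample columns was not used, and 8 primordial germ cell samples were left out.

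Counts were fitted over all 4 stages with edgeR 4.0.16 in R 4.3.3 (filterByExpr, TMM, quasi-likelihood), and log2(FPKM + 1) with limma 3.58.1 (FPKM of at least 1 in 3 libraries for days or 2 for treatments), calling an adjusted p below 0.05 and, for FPKM, at least 2-fold. DESeq2 1.42.0 was an alternative. FPKM times exon length gave whole fragments (within 0.1) for 97.8% of 30893 low values, which gave the depth and an edgeR fit as an alternative. Barcodes under 200 genes or over 40% mitochondrial UMIs were dropped, and the 15315 cells left of 15412 were clustered with scanpy 1.11.5 (2000 variable genes without the 9 genes, 20 components, 20 neighbours, Leiden resolution 0.5 by leidenalg 0.10.2). Shares have 95% exact binomial intervals.

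The 9 genes and all lists were chosen with earlier results of these data known. All 9 were described; from other vascular lists, no more than the 3 largest rises and falls per comparison were named, where the higher of the group means reached 5 (CPM or FPKM), and the 5 genes most correlated with the mean of the 9. The lane term, the fit on recovered fragments, the fit without the 1% of cells with most UMIs, the 6-cell rule and the comparison of effects at 48 h and 24 h were chosen after values were seen. On simulated E13.5 and E12.5 counts (15933 genes) edgeR recovered 78% of 2-fold and 100% of 4-fold changes, with 16 false calls. On simulated V580 day 6 and day 4 FPKM (11153 genes) and V580 and Con 48 h FPKM (10316 genes) limma recovered 100% of 4-fold changes. Changes were placed only in genes over a minimum mean level, for FPKM a mean of at least 5. The spread between simulated libraries was assumed and not estimated from the data. Recovery for lower genes, such as Tek, Emcn or Kdr in the treatments, was therefore not measured. Same-numbered replicates did not deviate together in all pairs (r over 0.1 in 0 of 12 stage, 9 of 30 day and 14 of 56 treatment pairs), so the main fits have no replicate term. In groups of 2 libraries, replicates 1 and 2 give the same r, so each stage and treatment value is counted 2 times here.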

Additional observations from a re-analysis of the deposited data

Results flagged for a closer look

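The effects of AM580 and V580 on some of the genes differed between 48 h and 24 h by a test of the difference itself in limma, on the log2(FPKM + 1) scale. Across all genes tested, 34.9% for AM580, 33.9% for V580 and 2.9% for Vc had an adjusted p below 0.05 in this test, so such differences were common, and none of the 6 genes passed it for Vc. Groups held 2 or 3 libraries, so no library was tested as an outlier.

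For Tie1 the effect was larger at 48 h by 1.518 ± 0.111 (SE) with AM580 (limma adjusted p = 1.35e-07) and by 1.582 ± 0.111 with V580 (9.45e-08). For Pecam1 the difference between times was -0.738 ± 0.0868 with AM580 (1.68e-05) and -0.525 ± 0.0868 with V580 (0.00035 in limma). For Flt1 it was 0.49 ± 0.102 with AM580 (0.00194) and 0.434 ± 0.102 with V580 (0.00434 in limma). For Tek it was -0.428 ± 0.146 with V580 (limma adjusted p = 0.035).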

How the results depend on the processing

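No fold of the 9 genes that was called in the main fit or in the alternative turned its direction between them. Folds called in neither were not checked for direction. Among fold values, 1504 kept their side of the threshold, 55 gained it and 47 lost it. Of the counts of genes called, 178 stayed within 1.5 times and 34 did not, and of the 10x values 25 held and 7 moved. The causes were not tested. Counts here are over all genes tested and so include Etv2 against E12.5, and Pecam1, Tek and Emcn against E12.5_GC, which passed the filter only through those groups.

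Requiring 2-fold left 3 genes in E16.5 against E12.5 (of 7) and 3 in E16.5 against E13.5 (of 6), where the length term also left 3. A pseudocount of 0.1 called 2 in day 8 against day 6 (1 otherwise), 2 in V580 at 48 h (1) and 3 in Con at 48 h against 24 h (1). Without the fold limit the counts were 3 in day 8 against day 6, 3 in day 10 against day 8 (0), 1 for Vc, 4 for AM580 and 5 for V580 at 24 h (0 each), 1 for Vc (0), 4 for AM580 (1) and 3 for V580 (1) at 48 h, and 4 in Con at 48 h against 24 h. On recovered fragments edgeR called 3 in day 8 against day 6, 2 in day 10 against day 8, 1 for Vc and 2 for V580 at 48 h, and 3 in Con at 48 h against 24 h. For the pseudocount, fold-limit and fragment settings no share over all genes is at hand, so these counts have no background beside them. Thinned to 3000 UMIs, 0.671% of Kdr cells had Cdh5 and 0.47% Pecam1. At resolution 1.0, 5 of 9 genes kept their highest cluster.

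Leaving out 1 library gave 7 to 8 genes in E13.5 against E12.5, 4 to 6 in E16.5 against E12.5 and 4 to 6 in E16.5 against E13.5. No share over all genes is at hand for the fits with 1 library left out, so their counts have no background beside them. Without E12.5 replicate 1, E16.5 against E12.5 lost Tek and Flt1. The other stage counts stayed at 9, 9 and 8. Against E12.5_GC the ranges were 3 to 6 at days 4 and 6, 4 to 8 at day 8 and 4 to 7 at day 10; without any 1 E12.5_GC library the filter removed Pecam1, Tek and Emcn. Day 6 against day 4 stayed at 4, day 8 against day 6 at 1 and day 10 against day 8 at 0. The treatments stayed at 0 or 1, and Con at 48 h against 24 h gave 1 to 2.

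With the replicate number as a block, which the labels do not tie to a shared animal or day, 8 genes were called in E16.5 against E12.5 and 7 in E16.5 against E13.5, each with Cdh5 added; no other count changed. With block and length term together the 6 stage counts were 7, 7, 9, 4, 9 and 8, in the order E13.5, E16.5 and P6w against E12.5, E16.5 and P6w against E13.5, and P6w against E16.5.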

Other observations

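Of 4 genes of lymphatic vessels, 3 were tested across the stages. The count was 2 higher and none lower at E13.5 and again at E16.5 against E12.5, and 1 higher and 1 lower at P6w (45.9%, 37.6% and 52.9% of all genes were called). With the length term none was called at E13.5. Pdpn, which encodes podoplanin and is also made by mesothelium, was at 259 ± 22.1 CPM in E16.5 (SD, n = 2) against 87.2 ± 4.45 in E12.5, a log2 difference of 1.57 ± 0.14 (SE, edgeR adjusted p = 5.62e-07). The 8 vessel genes other than Etv2, whose direction the filter fixed, had lower mean levels in E16.5 than in E12.5. Of these 8, 6 were called lower. In V580 cells 2 of the 4 lymphatic genes were tested against E12.5_GC, and Pdpn was higher at days 8 and 10 by limma with the 2-fold limit.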
